A study of Saccharomyces cerevisiae with 46 samples.

Results

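The break-cold part of the *rad50S* genome was described as 295 tiles of 5 kb that carried few meiotic double-strand breaks (DSBs). Each of the 16 chromosomes was divided into tiles of 5 kb from position 1, and the last partial tile was dropped. A tile was kept where both *rad50S* libraries had hits in it and their mean was at most 40 HpM (hits scaled to a total of 1000000 per library) for the 2 strands together. This rule took 295 of the 2400 tiles with hits (12.3%), out of 2403 full tiles. The remaining 3 tiles, which lie side by side on chromosome XII (445001 to 460000), had no hit in any library and were left out. Coordinates are those of the SK1 assembly ASM205788v1, the build of the files. The members were chosen by their low level in *rad50S*, so every comparison with *rad50S* below is a description and carries no test.

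The libraries came from SK1 diploids of *Saccharomyces cerevisiae* collected 6 h after meiotic induction, with 2 replicates per genotype. The genotypes were *rad50S hop1-loop2 pch2*, *rad50S hop1-loop2* and *rad50S*. All of them carried *rad50S*, so no library shows breaks that can be repaired. In the strain table, the *rad50S* strain also carried the inserted *HIS4::LEU2* hotspot and *ho::hisG*, whereas the *rad50S hop1-loop2 pch2* strain carried *ho::LYS2* and *pch2Δ::kanMX*, so the strains differed at marker loci as well. The marker loci of the *rad50S hop1-loop2* strain are not given in the sources used here. The paper's library list names 1 strain each for *rad50S* and *rad50S hop1-loop2*. It leaves out *rad50S hop1-loop2 pch2*, of which the strain table holds 1 strain. The mutant effect and the strain cannot be told apart.

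Meiotic DSBs are made by Spo11, which stays bound to the 5′ ends of the broken strands until the ends are processed. The *rad50S* allele blocks this processing, and covalent-complex sequencing (CC-seq) maps the bound ends to single bases. Breaks cluster in short hotspots, and over longer distances their density depends on the chromosome axis, where Hop1 helps to recruit the break machinery. Hop1 binds nucleosomes through its chromatin-binding region, and *hop1-loop2* alters a loop of that region which contacts nucleosomal DNA. Pch2 is an AAA+ ATPase that removes Hop1 from chromosomes. Regions next to telomeres, centromeres and the ribosomal DNA are known to receive few breaks. Positions of centromeres, axis islands and genes were not used here, because the reference genome at hand was of another strain.

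Whole hits could be recovered from the deposited values. The *rad50S hop1-loop2 pch2* libraries held 3614810 and 1026669 hits, the *rad50S hop1-loop2* libraries 6277735 and 7985420, and the *rad50S* libraries 7730583 and 7577582. A tile at 40 HpM therefore rested on 145 and 41.1 hits in *rad50S hop1-loop2 pch2*, on 251 and 319 hits in *rad50S hop1-loop2*, and on 309 and 303 hits in *rad50S*. Replicate 2 of *rad50S hop1-loop2 pch2* stood apart from the others. Only 64.0% of its hits fell inside hotspots, against 85.1% in replicate 1 of that genotype and 86.8% to 89.4% in the other libraries. HpM is a share of each library, so the values say nothing about the total number of breaks.

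The coldest members were close to empty in *rad50S*. The first tile of chromosome III (1 to 5000) held 0.259 and 5.41 HpM in *rad50S*, which is the lowest mean of all members at 2.83 HpM. It was followed by VIII 300001 to 305000 (3.54 HpM), the first tile of XV (1 to 5000, 3.61 HpM), VII 135001 to 140000 (3.67 HpM) and IV 1335001 to 1340000 (3.94 HpM). Of these 5 tiles, 2 are the outermost of their chromosome and the others lie 135 kb or more from an end. At the upper edge, the members just inside the threshold were IV 465001 to 470000 (39.9 HpM), XV 50001 to 55000 (39.8 HpM) and XI 555001 to 560000 (39.7 HpM). Just outside were XIV 565001 to 570000 (40.6 HpM), XIV 580001 to 585000 (40.6 HpM) and XIII 880001 to 885000 (40.6 HpM), so the threshold cuts through a continuous range of levels.

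The members took a small share of all hits in every library. They received 2.11% and 4.91% of the hits in *rad50S hop1-loop2 pch2*, 1.15% and 1.16% in *rad50S hop1-loop2*, and 0.529% and 0.640% in *rad50S*. The median member had 41.5 and 151 HpM in the *rad50S hop1-loop2 pch2* libraries, 20.4 and 17.9 HpM in *rad50S hop1-loop2*, and 17.3 and 21.2 HpM in *rad50S*. Over all tiles with hits the medians were 183 and 250.3 HpM in *rad50S hop1-loop2 pch2*, 166 and 167 HpM in *rad50S hop1-loop2*, and 229 and 242 HpM in *rad50S*. The median member was thus below the median tile in every library, and the 2 libraries of *rad50S hop1-loop2 pch2* differed from each other by more than those of the other genotypes.

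**Figure D1:**
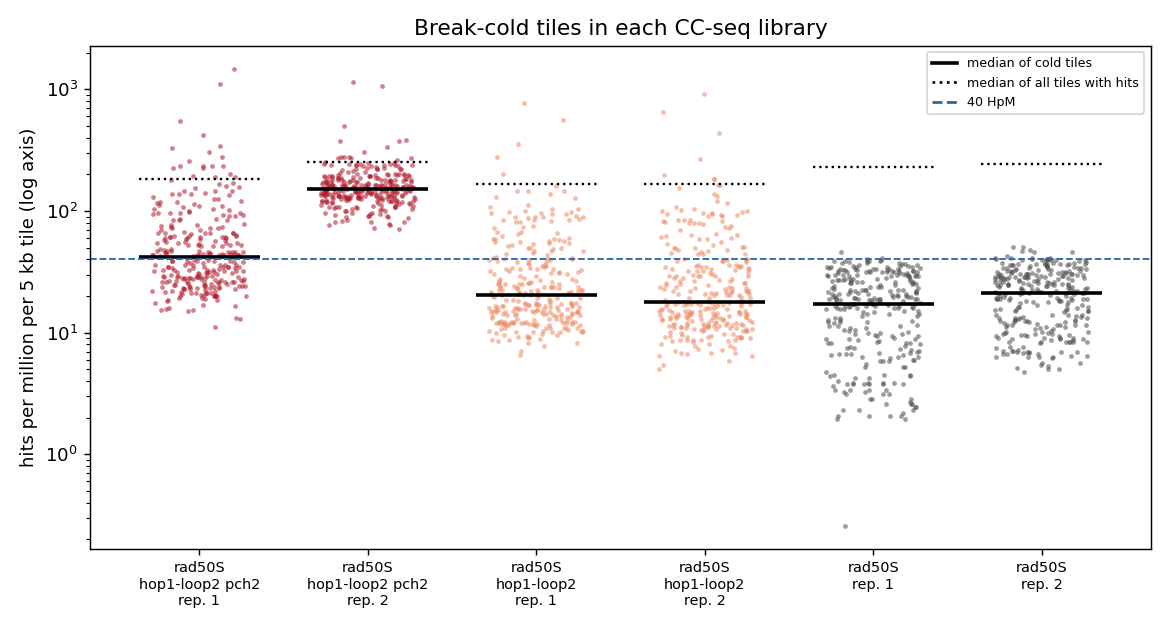
HpM per 5 kb tile (log axis) of the 295 cold tiles in each of the 6 libraries. Each point is a tile, the solid line is the median of the cold tiles, the dotted line is the median of all tiles with hits, and the dashed line marks 40 HpM. Every member lies above 40 HpM in replicate 2 of *rad50S hop1-loop2 pch2*, where the lowest is at 71.1 HpM.

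Cold tiles were concentrated at chromosome ends. Within 20 kb of an end, 55 of 128 tiles were cold (43.0%), and beyond that 240 of 2272 were (10.6%). The share was 43.8% for the outermost 5 kb, 50.0% between 5 and 10 kb, 39.1% between 10 and 20 kb, 22.7% between 20 and 40 kb and 12.9% between 40 and 80 kb. It was 8.86% more than 160 kb from an end. Most members were nevertheless internal, since 163 of 295 lay at least 100 kb from an end.

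Chromosomes differed in how much of their length was cold. On chromosome III 19 of 68 tiles were members (27.9%), which was the highest share, followed by XII with 39 of 207 (18.8%), V with 20 of 117 (17.1%) and IX with 15 of 89 (16.9%). The lowest shares were found on XIII, with 13 of 184 tiles (7.07%), and on XI, with 10 of 138 (7.25%).

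**Figure D2:**
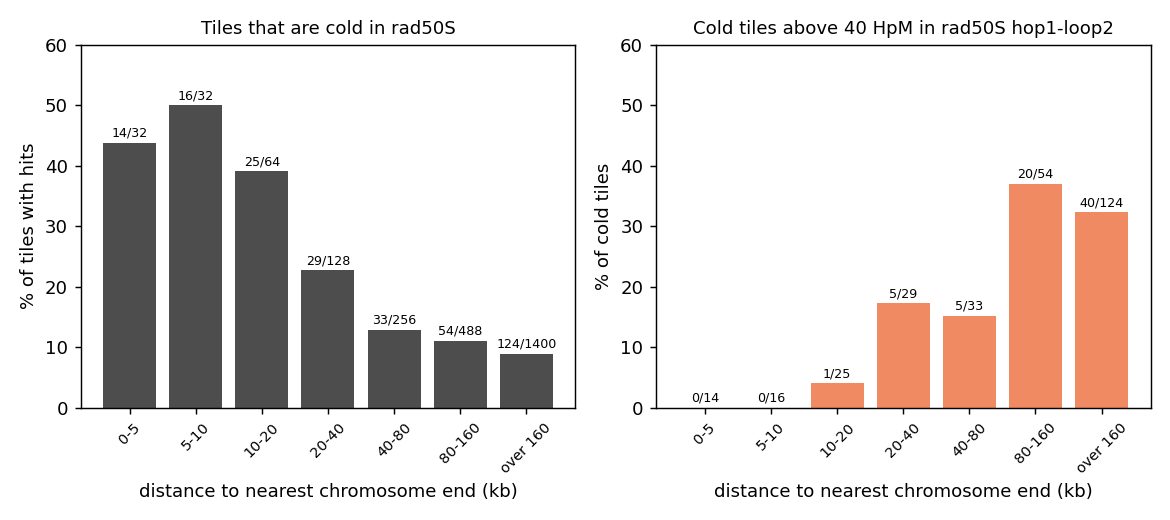
Left, percentage of tiles with hits that were cold in *rad50S*, by distance (kb) to the nearest chromosome end. Right, percentage of these cold tiles whose mean exceeded 40 HpM in *rad50S hop1-loop2*; numbers above bars give tiles counted over tiles in the bin. Cold tiles were most frequent near the ends, and only 1 of 55 within 20 kb of an end was above 40 HpM in *rad50S hop1-loop2*.

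Most cold tiles stood alone. No neighbouring tile was cold for 202 members, and the other 93 formed 32 runs of adjacent cold tiles, of which 18 held 2 tiles, 9 held 3 and 2 held 4. The 3 longest runs held 5, 8 and 9 tiles. An isolated cold tile had a median of 20.8 HpM in *rad50S*, while the mean of the tiles on either side of it had a median of 363 HpM. The neighbours are not cold by definition.

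Paired hits of the kind Spo11 leaves were present also in the coldest tiles. Spo11 cuts the strands with a fixed stagger, which in these files places a Crick hit 1 position after a Watson hit. In the 79 members below 10 HpM in *rad50S*, such pairs of positions numbered 53 and 42 in the *rad50S* libraries, against an average of 9.65 and 15.7 pairs at offsets of 10 to 29 bp, which are ratios of 5.49 and 2.68. In the *rad50S hop1-loop2* libraries the ratios in the same tiles were 3.17 and 2.59. In *rad50S hop1-loop2 pch2* they were 3.27 in replicate 1 and 1.60 in replicate 2. The paired positions were therefore in excess in all 6 libraries, least in replicate 2 of *rad50S hop1-loop2 pch2*. The ratio depends on depth and on the density of hits and was not tested.

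The hits of a cold tile were less gathered in a short stretch than those of the median tile, in every library. The 200 bp window with the most hits held a median of 50.0% and 39.5% of a member's hits in *rad50S*, against 57.9% and 55.4% over all tiles. In *rad50S hop1-loop2* it held 31.3% and 29.9% in the members, against 50.6% and 51.0% over all tiles, and in *rad50S hop1-loop2 pch2* 26.7% and 17.4%, against 46.1% and 28.2%. The Watson strand carried between 48.3% and 50.5% of the hits in the members below 10 HpM and in those of 10 to 40 HpM, in every library.

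The level of hits outside hotspots differed between libraries, and so did the level of their lowest tiles. Hotspots were called on the mean of all 6 libraries, and outside them the cold tiles held 10.1 and 30.3 HpM per kb in *rad50S hop1-loop2 pch2*, 5.25 and 5.11 HpM per kb in *rad50S hop1-loop2*, and 3.15 and 3.94 HpM per kb in *rad50S*. Over all tiles these levels were 13.5 and 32.5 HpM per kb in *rad50S hop1-loop2 pch2*, 9.57 and 9.66 HpM per kb in *rad50S hop1-loop2*, and 10.4 and 11.9 HpM per kb in *rad50S*. The floor of a library was taken as its 2nd percentile over tiles with hits. It was 23.2 and 104 HpM per tile in *rad50S hop1-loop2 pch2*, 11.9 and 10.8 HpM in *rad50S hop1-loop2*, and 4.78 and 8.97 HpM in *rad50S*. A fixed threshold of 40 HpM is thus not the same mark in all libraries, and the counts below are given also with the floors subtracted.

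In *rad50S hop1-loop2*, most cold tiles stayed cold. The mean of the 2 libraries was at most 40 HpM in 224 of the 295 members (75.9%) and above 40 HpM in 71 (24.1%), where 82.8% of all tiles were above 40 HpM. After subtraction of the floors, with the threshold lowered by the mean *rad50S* floor, 230 stayed and 65 filled, and 81.4% of all tiles were above that mark. Both *rad50S hop1-loop2* libraries exceeded 40 HpM in 63 members, and neither did in 218. Tiles were also chosen on 1 *rad50S* replicate and read in the other, which describes how well these 2 libraries agree. It cannot show how far the choice shaped the counts in *rad50S hop1-loop2*, whose floor was higher. The other *rad50S* replicate is 1 library, whereas *rad50S hop1-loop2* is read as a mean of 2. Of 316 tiles at most 40 HpM in replicate 1, 277 were so in replicate 2, and 236 had a mean of at most 40 HpM in *rad50S hop1-loop2*. Of 287 tiles chosen on replicate 2, 277 were also at most 40 HpM in replicate 1, and 217 in *rad50S hop1-loop2*.

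Both *rad50S hop1-loop2* libraries were above both *rad50S* libraries in 166 members, where 36.2% of all tiles had this order. They were below both *rad50S* libraries in 51 members, against 51.5% of all tiles. The mean was more than 2 times that of *rad50S* in 91 members, against 16.8% of all tiles, and more than 5 times in 16, against 2.67% of all tiles. It was under 0.5 times that of *rad50S* in 12 members, against 30.1% of all tiles. The members were chosen as low in *rad50S*, and the floor of *rad50S hop1-loop2* was the higher one. The part of either in these counts was not tested.

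The highest member in *rad50S hop1-loop2* was IV 465001 to 470000. It had 1472 and 1139 HpM in *rad50S hop1-loop2 pch2*, 770.0 and 910.2 HpM in *rad50S hop1-loop2*, and 39.1 and 40.8 HpM in *rad50S*. The 3 genotypes did not overlap, and the mean in *rad50S hop1-loop2* was 21.0 times that in *rad50S*. No hotspot was called in this tile in *rad50S*, whereas 4 were called in *rad50S hop1-loop2 pch2* and 3 in *rad50S hop1-loop2*.

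Next came 3 tiles of the run on chromosome III and 2 isolated tiles. XV 360001 to 365000 had 307 and 229 HpM in *rad50S hop1-loop2 pch2*, 275 and 266 HpM in *rad50S hop1-loop2*, and 20.8 and 24.7 HpM in *rad50S*. The libraries of the 2 mutants overlapped in this tile, with means of 268 HpM in *rad50S hop1-loop2 pch2* and 271 HpM in *rad50S hop1-loop2*. IV 1385001 to 1390000 had 160.2 and 236 HpM in *rad50S hop1-loop2 pch2*, 200.9 and 162 HpM in *rad50S hop1-loop2*, and 21.7 and 23.6 HpM in *rad50S*. Here too the mutants overlapped each other and both were far above *rad50S*.

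Few of the members that were nearly empty in *rad50S* passed the 40 HpM mark, from which they also lay farthest. Of the 79 members below 10 HpM in *rad50S*, 3 were above 40 HpM in *rad50S hop1-loop2* (3.80%), and of the 216 members of 10 to 40 HpM, 68 were (31.5%). The median log2 ratio of *rad50S hop1-loop2* over *rad50S* was 0.80 in the 79 and 0.23 in the 216, on the log2(HpM + 1) scale. This split used the same *rad50S* values that the ratio divides by, so a larger ratio in the 79 is partly built in. The mean floor was also higher in *rad50S hop1-loop2* (11.4 HpM) than in *rad50S* (6.88 HpM). The part of either in the ratio was not tested. The 3 exceptions, named after their values were seen, were X 440001 to 445000, V 165001 to 170000 and IV 1460001 to 1465000. X 440001 to 445000 had 233 and 274 HpM in *rad50S hop1-loop2 pch2*, 145 and 185 HpM in *rad50S hop1-loop2*, and 9.44 and 9.37 HpM in *rad50S*. V 165001 to 170000 had 117 and 219 HpM in *rad50S hop1-loop2 pch2*, 64.4 and 73.9 HpM in *rad50S hop1-loop2*, and 6.34 and 11.0 HpM in *rad50S*. The median of the 79 tiles was 23.8 and 132 HpM in *rad50S hop1-loop2 pch2*, 11.9 and 10.9 HpM in *rad50S hop1-loop2*, and 3.88 and 8.45 HpM in *rad50S*, which is close to the floor of each library except replicate 2 of *rad50S hop1-loop2 pch2*.

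**Figure D3:**
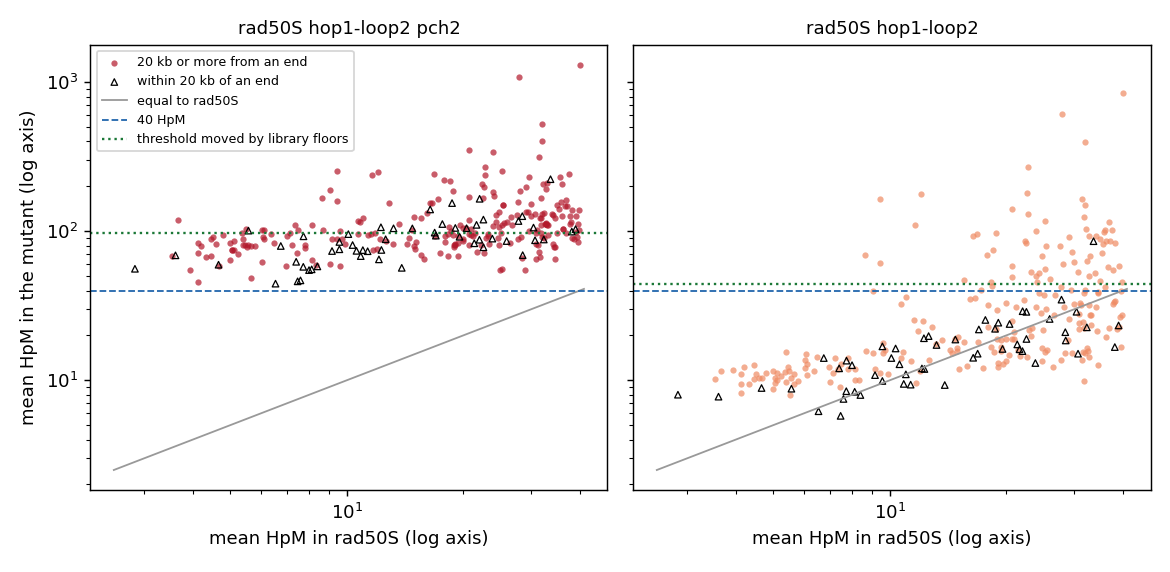
Mean HpM of each of the 295 cold tiles in *rad50S hop1-loop2 pch2* (left) and *rad50S hop1-loop2* (right) against its mean in *rad50S*, both on log axes. Triangles are tiles within 20 kb of a chromosome end, the dashed line is 40 HpM and the dotted line is the threshold moved by the library floors (96.9 HpM left, 44.5 HpM right); all members lie above 40 HpM on the left, and 71 do on the right.

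Filling in *rad50S hop1-loop2* was rare near chromosome ends. Within 20 kb of an end 1 of 55 members filled (1.82%), and beyond that 70 of 240 did (29.2%). Of all tiles, 35.2% within 20 kb of an end and 85.5% beyond were above 40 HpM. The members near ends were also lower in *rad50S*, with a median of 13.2 HpM, against 20.7 HpM beyond. Their median log2 ratio of *rad50S hop1-loop2* over *rad50S* was 0.04, against 0.61 beyond, and the ratio exceeded 2 in 4 of 55, against 87 of 240. None of the 14 members in the outermost 5 kb and none of the 16 between 5 and 10 kb filled, where a share of 0 rests on few tiles. Between 80 and 160 kb from an end 20 of 54 members filled (37.0%). By chromosome, 10 of 19 members filled on III and 15 of 36 on IV, whereas none filled on I, VI or XI, which together hold few members (4, 5 and 10). The background differed by chromosome as well. Tiles above 40 HpM in *rad50S* but at most 40 HpM in *rad50S hop1-loop2* made up 17.6% of tiles on III and 1.35% on IV. They made up 24.4% on I, 6.78% on VI and 6.52% on XI. Whether the chromosomes differ in filling beyond this was not tested.

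Tiles around a filling tile were higher in *rad50S hop1-loop2* as well. Tiles that were not cold and lay within 2 tiles of a member were summed and compared between *rad50S hop1-loop2* and *rad50S*. The median log2 ratio of these flanks was 0.92 for 65 filling members with such flanks and -0.68 for 211 members that stayed cold, on the log2(HpM + 1) scale. The flanks were higher in *rad50S hop1-loop2* for 54 of 65 filling members (83.1%) and for 65 of 211 staying ones (30.8%). Members and flanks share the same libraries, and neighbouring members share flanks, so these values are given without a test. The median log2 ratio was 0.47 over the members and -0.27 over all tiles.

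A few members were lower in *rad50S hop1-loop2*. The 3 with the lowest ratio, picked after their values were seen, were V 545001 to 550000, II 40001 to 45000 and XIV 755001 to 760000. V 545001 to 550000 had 28.8 and 166 HpM in *rad50S hop1-loop2 pch2*, 10.5 and 9.14 HpM in *rad50S hop1-loop2*, and 26.0 and 37.6 HpM in *rad50S*. II 40001 to 45000 had 27.1 and 130 HpM in *rad50S hop1-loop2 pch2*, 11.6 and 13.5 HpM in *rad50S hop1-loop2*, and 33.9 and 35.1 HpM in *rad50S*. In both tiles the *rad50S hop1-loop2* libraries sat at the floor of their library and below both *rad50S* libraries.

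The longest run lies on chromosome III from 105001 to 150000 and filled almost throughout. Its 9 tiles together held 3074 and 3233 HpM in *rad50S hop1-loop2 pch2*, 1627 and 1883 HpM in *rad50S hop1-loop2*, and 177 and 190 HpM in *rad50S*. The genotypes did not overlap, and the sum was 17.2 times that of *rad50S* in *rad50S hop1-loop2 pch2* and 9.57 times in *rad50S hop1-loop2*. In *rad50S* the 9 tiles ranged from 11.6 to 31.9 HpM, with no tile standing out.

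The gain within this run was uneven. The tile III 125001 to 130000 had 1104 and 1064 HpM in *rad50S hop1-loop2 pch2*, 561 and 654 HpM in *rad50S hop1-loop2*, and 31.4 and 24.3 HpM in *rad50S*. III 115001 to 120000 had 548 and 499 HpM in *rad50S hop1-loop2 pch2*, 353 and 441 HpM in *rad50S hop1-loop2*, and 33.6 and 30.2 HpM in *rad50S*. III 120001 to 125000, between them, had 279 and 217 HpM in *rad50S hop1-loop2 pch2*, 161 and 196 HpM in *rad50S hop1-loop2*, and 11.3 and 12.8 HpM in *rad50S*. The first tile, III 105001 to 110000, had 327 and 375 HpM in *rad50S hop1-loop2 pch2*, 146 and 133 HpM in *rad50S hop1-loop2*, and 18.6 and 22.7 HpM in *rad50S*. Hotspots were called in each of these 4 tiles in both mutants and in none of them in *rad50S*. The last tile, III 145001 to 150000, was the exception, with 30.4 and 132 HpM in *rad50S hop1-loop2 pch2*, 16.4 and 15.7 HpM in *rad50S hop1-loop2*, and 10.6 and 17.9 HpM in *rad50S*.

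The run of 8 tiles on chromosome IX, from 405001 to 445000, reaches to within 4.46 kb of the last position with a hit. It filled only on its inner side. IX 415001 to 420000 had 191 and 244 HpM in *rad50S hop1-loop2 pch2*, 73.8 and 75.5 HpM in *rad50S hop1-loop2*, and 15.1 and 21.9 HpM in *rad50S*, and was the only tile of the run above 40 HpM in *rad50S hop1-loop2*. IX 410001 to 415000, next to it, reached 139 and 241 HpM in *rad50S hop1-loop2 pch2*, 42.1 and 37.8 HpM in *rad50S hop1-loop2*, and had 8.28 and 9.77 HpM in *rad50S*. Toward the end the levels of all genotypes were at their lowest. IX 435001 to 440000 held 16.9 and 72.1 HpM in *rad50S hop1-loop2 pch2*, 7.01 and 5.38 HpM in *rad50S hop1-loop2*, and 5.56 and 7.52 HpM in *rad50S*, so that the *rad50S hop1-loop2* libraries and the *rad50S* libraries overlapped there.

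The run of 5 tiles on chromosome IV, from 1460001 to 1485000, also lies at an end and filled on its inner side. IV 1465001 to 1470000 had 169.9 and 277 HpM in *rad50S hop1-loop2 pch2*, 91.1 and 80.3 HpM in *rad50S hop1-loop2*, and 31.7 and 35.5 HpM in *rad50S*. It was the one member within 20 kb of an end that filled in *rad50S hop1-loop2*. The outermost tile, IV 1480001 to 1485000, had 46.5 and 163 HpM in *rad50S hop1-loop2 pch2*, 17.2 and 17.3 HpM in *rad50S hop1-loop2*, and 12.5 and 13.9 HpM in *rad50S*. Over all 93 members in runs, 19 filled in *rad50S hop1-loop2* (20.4%), of which 8 were on III, and of the 202 isolated members 52 did (25.7%).

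**Figure D4:**
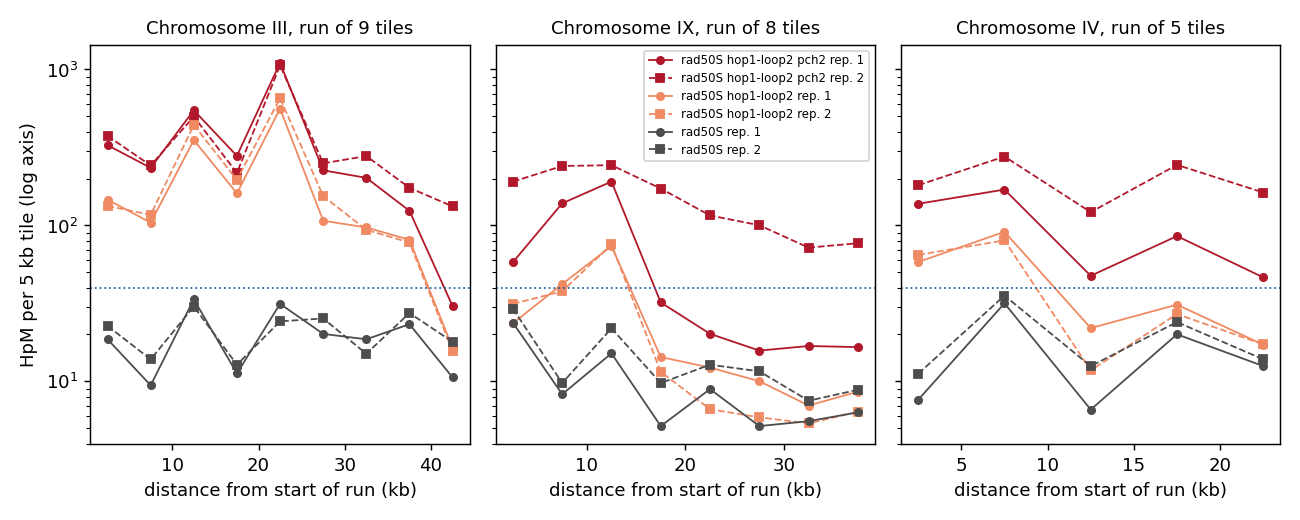
HpM per 5 kb tile (log axis) along the 3 longest runs of cold tiles, by distance (kb) from the start of the run. Each line is a library and the dotted line marks 40 HpM; on chromosome III 8 of 9 tiles exceed 40 HpM in all 4 mutant libraries, and on IX and IV the *rad50S hop1-loop2* lines come close to the *rad50S* lines toward the chromosome end.

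In *rad50S hop1-loop2 pch2*, none of the 295 members had a mean of at most 40 HpM, but neither did any other tile with hits, as 100% of all tiles were above that mark. The count came from replicate 2, in which the lowest member held 71.1 HpM. In replicate 1 alone, 145 members were at most 40 HpM. After subtraction of the floors, which moved the mark to 96.9 HpM, 152 members stayed cold, against 11.1% of all tiles, and 143 filled, against 88.9% of all tiles. With replicate 1 alone treated this way 100 members filled, and with replicate 2 alone 188. Both *rad50S hop1-loop2 pch2* libraries were above both *rad50S* libraries in 270 members, against 42.5% of all tiles, and below them in 0, against 33.2% of all tiles. No member was below 10 HpM in both mutants.

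The members that filled in *rad50S hop1-loop2* nearly all filled in *rad50S hop1-loop2 pch2*. With floors subtracted, 62 of 65 did so, and 63 and 61 of the 65 when replicates 1 and 2 were read separately. A further 81 members were past the mark only in *rad50S hop1-loop2 pch2*, 3 only in *rad50S hop1-loop2*, and 149 in neither. Of all tiles, 88.9% were past it in *rad50S hop1-loop2 pch2* and 81.4% in *rad50S hop1-loop2*. With replicate 1 alone 100 members were past the mark and with replicate 2 alone 188, so the 81 rested more on replicate 2. The 81 tiles had a median of 46.8 and 173 HpM in *rad50S hop1-loop2 pch2*, 23.6 and 22.0 HpM in *rad50S hop1-loop2*, and 19.5 and 24.0 HpM in *rad50S*. Hotspots of *rad50S hop1-loop2 pch2* were called in 13 of these 81 and in 54 of the 62 that filled in both.

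The comparison of the 2 mutants did not use *rad50S* and was tested over all 2400 tiles with limma on log2(HpM + 1). In 284 members both *rad50S hop1-loop2 pch2* libraries were above both *rad50S hop1-loop2* libraries, where 55.6% of all tiles had this order, and the opposite order was found in 0 members and 19.6% of all tiles. The median log2 change of the members was 1.89, against 0.46 over all tiles, and thus 1.43 above that shift. By library, the median change of the members against *rad50S hop1-loop2* was 0.97 for replicate 1 and 2.78 for replicate 2. At a Benjamini-Hochberg adjusted p under 0.05, 31 members rose (10.5%), where 11.0% of all tiles did, a share near the background in this fit. That relation changed with the tool: on recovered reads 45 members rose in edgeR (15.3%, against 7.96% of all tiles) and 198 in DESeq2 (67.1%, against 15.1% of all tiles). No member fell in limma, either adjusted or at an unadjusted p under 0.05, nor in edgeR or DESeq2, where 9.92% of all tiles fell in limma. A fit without 1 library leaves 1 library in its group, so its spread comes only from the 2 libraries of the other genotype. Those 2 lay close together in *rad50S hop1-loop2* and far apart in *rad50S hop1-loop2 pch2*, so counts and calls of these fits cannot show stability. The median change of the members was 1.94 and 1.87 without replicate 1 and 2 of *rad50S hop1-loop2*. The number that rose was 293 without replicate 1 of *rad50S hop1-loop2 pch2* (99.3%, against 60.8% of all tiles) and 249 without its replicate 2 (84.4%, against 40.6% of all tiles). It was 3 and 4 without replicate 1 and 2 of *rad50S hop1-loop2* (1.02% and 1.36%, against 2.25% and 3.42% of all tiles).

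Of the 31 members that rose, 26 were among the 71 above 40 HpM in *rad50S hop1-loop2*, and 2 lay within 20 kb of an end. The members not called had a larger median log2 change (1.96, against 1.46). Their median level in *rad50S hop1-loop2* was lower (16.8 HpM, against 82.0 HpM), and the SE was larger at low levels. The calls therefore do not show where the change was largest. Among the 31, the 3 with the largest increase were XII 435001 to 440000, XII 460001 to 465000 and IV 1475001 to 1480000. XII 435001 to 440000 had 104 and 203 HpM in *rad50S hop1-loop2 pch2*, 23.4 and 21.9 HpM in *rad50S hop1-loop2*, and 12.3 and 13.5 HpM in *rad50S* (log2 change of the mutants 2.63, SE 0.88, limma adjusted p = 0.0186). XII 460001 to 465000 had 97.7 and 172 HpM in *rad50S hop1-loop2 pch2*, 25.2 and 26.5 HpM in *rad50S hop1-loop2*, and 31.6 and 26.4 HpM in *rad50S* (2.28, SE 0.88, limma adjusted p = 0.0464). These 2 tiles lie on either side of the stretch of XII without hits, the second directly next to it. IV 1475001 to 1480000, in the run at the end of IV, had 85.5 and 244 HpM in *rad50S hop1-loop2 pch2*, 31.1 and 27.0 HpM in *rad50S hop1-loop2*, and 20.1 and 24.0 HpM in *rad50S* (2.28, SE 0.80, limma adjusted p = 0.0259). All 3 calls were lost with either replicate block, when scaled to hits inside hotspots, with positions counted once and without either replicate of *rad50S hop1-loop2*. Those of XII 460001 to 465000 and IV 1475001 to 1480000 were lost also after centring, and that of XII 460001 to 465000 with a pseudocount of 10 HpM.

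Among the members with the highest level in *rad50S hop1-loop2 pch2*, the replicates lay close together and the SE of the fit was smaller. The fit takes the SE from a trend with level over all tiles, so neither the SE nor the p-value measures a tile's own replicate spread. IX 380001 to 385000 had 417 and 383 HpM in *rad50S hop1-loop2 pch2*, 139 and 163 HpM in *rad50S hop1-loop2*, and 28.6 and 35.2 HpM in *rad50S*, and rose between the mutants by a log2 change of 1.40 (SE 0.23, limma adjusted p = 7.75e-08). XII 475001 to 480000 had 344 and 334 HpM in *rad50S hop1-loop2 pch2*, 100.4 and 101 HpM in *rad50S hop1-loop2*, and 25.6 and 22.2 HpM in *rad50S* (1.74, SE 0.30, limma adjusted p = 2.67e-07). Both tiles were several times above *rad50S* in *rad50S hop1-loop2* and higher again in *rad50S hop1-loop2 pch2*, with no overlap. Of the settings tried, their call was lost only with positions counted once, as was that of III 105001 to 110000.

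On chromosome III, III 125001 to 130000 rose by 0.84 (SE 0.15, limma adjusted p = 1.26e-06) and III 105001 to 110000 by 1.32 (SE 0.25, limma adjusted p = 4.83e-06). For III 115001 to 120000 the change was 0.41 (SE 0.16, limma adjusted p = 0.0551) and for III 120001 to 125000 it was 0.47 (SE 0.27, limma adjusted p = 0.199). In all, 5 of the 9 tiles of this run passed the test. The call of III 125001 to 130000 was lost in edgeR (adjusted p = 0.299), in DESeq2, with floors subtracted (limma adjusted p = 0.0726), with positions counted once and without replicate 1 of *rad50S hop1-loop2*. IV 465001 to 470000 had a change of 0.63 (SE 0.16, limma adjusted p = 0.00112). Its call was lost in edgeR (adjusted p = 0.562), in DESeq2, after centring, with floors subtracted (limma adjusted p = 0.18), with positions counted once and without either replicate of *rad50S hop1-loop2*. XV 360001 to 365000 (-0.03, SE 0.22, limma adjusted p = 0.918) and IV 1385001 to 1390000 (0.11, SE 0.30, limma adjusted p = 0.784) did not pass. Over all tiles the median change was 0.46, so the changes of IV 465001 to 470000 and of the III tiles at 115001 and 120001 were within 0.2 of that shift.

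**Figure D5:**
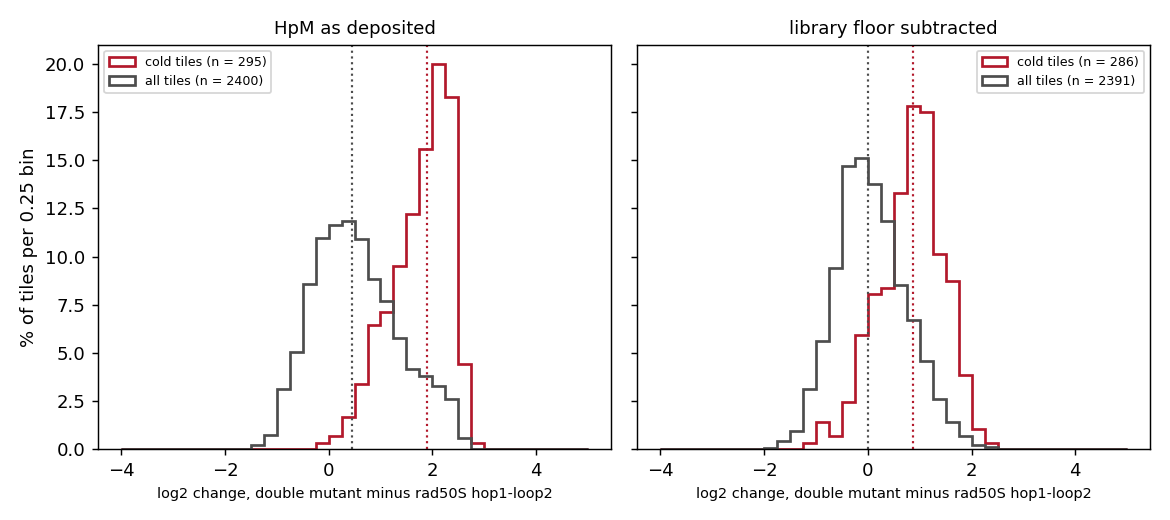
Distribution of the log2 change of *rad50S hop1-loop2 pch2* minus *rad50S hop1-loop2* over the cold tiles and over all tiles, as percent of tiles per bin of 0.25. Dotted lines are medians; they lie at 1.89 for cold tiles and 0.46 for all tiles with HpM as deposited (left), and at 0.87 and 0.01 after subtraction of each library's floor with a pseudocount of 10 HpM (right).

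With the floors subtracted, the median log2 change of the members was 0.87, against 0.01 over all tiles. In that fit 18 of 286 members rose (6.29%), where 2.34% of all tiles did, and none fell, where 3.05% of all tiles fell; 1 member had an unadjusted p under 0.05 and a lower level. Of the calls, 17 were shared with the 31 above. The members that had stayed at most 40 HpM in *rad50S hop1-loop2* had a median change of 2.11 as deposited and of 0.97 after subtraction, and those that had filled 1.05 and 0.56. This split used the same *rad50S hop1-loop2* values that the change subtracts, so a larger change in the first group is partly built in. Subtracting a higher floor lowers the change of low tiles by construction, and the pseudocount of 10 HpM alone gave a median of 1.54 over the members and 0.43 over all tiles. The part of the diffuse level in the change was not tested.

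Hotspots were also called per genotype. The members were chosen as low in *rad50S*, so a low count in that genotype follows from the rule. A hotspot was centred in 67 of the 295 members in *rad50S hop1-loop2 pch2* (22.7%, against 76.2% of all tiles), in 53 in *rad50S hop1-loop2* (18.0%, against 74.8%) and in 6 in *rad50S* (2.03%, against 83.2%). In 48 members both mutants had one, in 19 only *rad50S hop1-loop2 pch2* and in 5 only *rad50S hop1-loop2*. Of the 71 members that filled in *rad50S hop1-loop2*, 52 held a hotspot there (73.2%). In the filling tiles the best 200 bp window held a median of 55.2% and 52.3% of the hits in *rad50S hop1-loop2*, and in those that stayed cold 23.1% and 21.8%. Filling, the hotspot call and the window share all use the same *rad50S hop1-loop2* values, so these differences are partly built in.

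Ranks gave a comparison that does not use the HpM scale. The 295 coldest tiles of *rad50S hop1-loop2 pch2* shared 163 tiles with the members (55.3% of each list), and the 295 coldest of *rad50S hop1-loop2* shared 196 (66.4%). The lists of the 2 mutants shared 208 tiles (70.5%). Read singly, replicate 1 of *rad50S hop1-loop2 pch2* shared 243 with the list of *rad50S hop1-loop2* (82.4%), and replicate 2 shared 164 (55.6%). A list of 295 is 12.3% of the 2400 tiles with hits. Between replicates, 172 tiles were shared for *rad50S hop1-loop2 pch2* (58.3%), 270 for *rad50S hop1-loop2* (91.5%) and 275 for *rad50S* (93.2%). Replicate 1 of *rad50S hop1-loop2 pch2* shared 181 of its 295 coldest tiles with the members, and replicate 2 shared 133. There were 150 tiles in all 3 lists.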

How the data were processed

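Of the series, the 6 CC-seq libraries were analysed (3 genotypes, 2 replicates each, 6 h). The methods speak of independent biological replicates, but the paper's library list leaves out *rad50S hop1-loop2 pch2*. Samples were grouped by their titles, because the genotype entry of the labels is the same for all of them and differs from the titles. The authors used TermMapper and Bowtie2 for alignment to the SK1 genome joined with spike-in sequences and deposited HpM (an RPM unit) per position and strand, with no replicate pooling. Removal of duplicate reads is not given in the sources used here. Dividing by the smallest value of a library gave whole numbers for 100% of its values (tolerance 0.01), so reads were recovered. Hits from PCR are not independent molecules, so depth covers counting error only. The SNP-ChIP counts of the series were not used.

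HpM of both strands was summed in 5 kb tiles. The distance to an end was taken to position 1 or to the last position with a hit. For hotspots, mean HpM was smoothed (Hann, 201 bp), and stretches of at least 25 bp above 0.2 HpM per bp were joined where under 200 bp apart. The 2 mutants were compared with limma 3.58.1 (trend, log2 of HpM plus a pseudocount of 1, Benjamini-Hochberg adjustment over all 2400 tiles, no filter beyond a hit in any of the 4 libraries, threshold 0.05). Alternatives included edgeR 4.0.16 (quasi-likelihood, TMM) and DESeq2 1.42.0 with the recovered reads, and edgeR called 45 members higher. An exact permutation test of 2 against 2 libraries cannot go below p = 0.333 and was not used. The limma script was tested on simulated data. Floor subtraction and ranks were added after seeing the data. The members and lists were chosen with earlier results of these data known.

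Tiles were named by a rule: the 3 longest runs, the 5 coldest tiles, 3 tiles on each side of the threshold, the 6 highest in each mutant, the 3 largest increases and decreases between the mutants past the threshold, and up to 3 tiles below 10 HpM in both mutants. No coordinates or sequences of the supplied S288C reference were used.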

Additional observations from a re-analysis of the deposited data

How the results depend on the processing

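The number of members was 151 at a threshold of 20 HpM, 524 at 80 HpM, 47 with 10 kb tiles at 80 HpM and 40 with each strand position counted once (and scaled to 1000000 again), and runs numbered 12, 78, 8 and 2. Members that stayed cold in *rad50S hop1-loop2* numbered 120 of 151, 418 of 524, 31 of 47 and 0 of 40. Tiles near an end numbered 16 with 10 kb tiles, 4 with positions counted once and 30 within 10 kb. In *rad50S hop1-loop2 pch2*, 83 stayed cold at 80 HpM, 1 with the grid shifted by 2.5 kb, 241 with the diffuse level subtracted, 152 with the floors subtracted, 163 by rank, and 0 to 145 without 1 replicate. Leaving out a *rad50S* replicate gave 287 to 316 members.

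Members higher in *rad50S hop1-loop2 pch2* than in *rad50S hop1-loop2* numbered 198 in DESeq2 (67.1%, against 15.1% of all tiles), 9 with the median change centred on 0 (3.05%, against 3.08%), 8 when scaled to hits inside hotspots (2.71%, against 9.62%), 0 with positions counted once (67 at an unadjusted p under 0.05), 18 with floors subtracted (6.29%, against 2.34%) and 3 to 293 without 1 library, where a lone library was assumed to vary like the other group; lower ones numbered 0 to 1. Over all tiles 264 rose and 238 fell, against 74 and 615 after centring, 191 and 293 in edgeR and 231 and 90 when scaled to hotspots. The median change was 0.60 with positions counted once and 0.97 to 2.78 without 1 library. With a replicate block 12 members rose (4.07%, against 7.67%). The replicate deviations of the mutants correlated at -0.19, so the numbers do not pair them, and a crossed block, added after seeing the data, gave 17 (5.76%, against 8.42%).

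The diffuse level of the members in *rad50S hop1-loop2* was 3.93 and 3.78 HpM per kb with hotspots called at 0.1 HpM per bp and 6.32 and 6.24 at 0.4; in *rad50S* it was 2.41 and 3.29 at 0.1. Members with a hotspot numbered 133 and 35 at these thresholds in *rad50S hop1-loop2 pch2*, 85 and 21 in *rad50S hop1-loop2*, and 76 and 0 in *rad50S*. Of 12 named tiles under 16 settings, 140 values kept direction and call, 36 lost the call, 5 gained it and 11 reversed. III 115001 reversed to -0.0495 after centring and -0.13 with positions counted once. XV 360001 reversed to 0.25 when scaled to hotspots and ranged from -0.24 to 0.18 without 1 library. IV 1385001 reversed to -0.28 in edgeR, -0.32 in DESeq2, -0.35 after centring, -0.17 with positions counted once, -0.31 with floors subtracted, and ranged from -0.17 to 0.38 without 1 library. The causes were not tested. Depth limits replicate 2 of *rad50S hop1-loop2 pch2* most, where 1 hit was worth 0.974 HpM.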

Other observations

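Cold stretches also appeared in *rad50S hop1-loop2* that were not cold in *rad50S*. There were 189 tiles with a mean of at most 40 HpM in *rad50S hop1-loop2* and above 40 HpM in *rad50S*. In 184 of them both *rad50S hop1-loop2* libraries were below both *rad50S* libraries, where 51.5% of all tiles had this order. The choice of the 189 makes this order nearly certain. Their median was 29.4 HpM in *rad50S hop1-loop2* and 82.8 HpM in *rad50S*, and 66 of them were above 100 HpM in *rad50S*. Of the 189, 53 were next to a break-cold tile and 29 lay within 20 kb of an end. Chromosome I held 11 of them (24.4% of its tiles) and chromosome IV 4 (1.35%). The 3 with the highest mean in *rad50S* were VII 445001 to 450000, XII 115001 to 120000 and I 210001 to 215000. VII 445001 to 450000 had 72.5 and 145 HpM in *rad50S hop1-loop2 pch2*, 37.0 and 34.3 HpM in *rad50S hop1-loop2*, and 760.2 and 640.2 HpM in *rad50S*. I 210001 to 215000 had 103 and 164 HpM in *rad50S hop1-loop2 pch2*, 32.8 and 34.4 HpM in *rad50S hop1-loop2*, and 507 and 388 HpM in *rad50S*. These tiles were chosen by this contrast, so no test is given. In the *rad50S hop1-loop2 pch2* libraries the median of the 189 was 48.1 and 149 HpM. As the tiles were chosen low in *rad50S hop1-loop2*, the mutants are not compared by test here either.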
